A study of Arabidopsis thaliana with 18 samples.

Results

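The transcripts described here are those of 23 nuclear genes of photosynthesis and chlorophyll synthesis in light-grown Arabidopsis thaliana cell suspension cultures (ACSC). They were chosen by symbol and annotation, with earlier results of these data known. A probe set had to carry exactly 1 gene symbol in the annotation of the array, a nuclear locus and a symbol with one of the prefixes used for antenna, photosystem, cyclic electron flow, tetrapyrrole or chlorophyll genes. The prefixes found 24 genes, and POR (PORCINO), a tubulin-folding cofactor, was dropped because it is not a plastid gene. The 23 that stayed, each with 1 probe set, stand among 13217 nuclear genes with a probe set of a single symbol. Of them, 5 have symbols written partly or wholly in lower case (NdhL, NdhN, NdhS, hemb2 and hemf2) and were kept. The annotation used here gave no member for the antenna of photosystem I, the small subunit of Rubisco, the GUN genes, the sigma factors or the FTSH proteases. HEMA1, CHLI1, PORA, PORC, the PSBO and PET genes and the LHCB genes other than LHCB4 were not among the members either. The 23 are therefore a sample of the pathway and not the whole of it.

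Total RNA was hybridized to Affymetrix ATH1 arrays, 3 for each of 6 groups and 18 in all. The groups were cultures with Rose Bengal (RB) at 0.5 μM, with hydrogen peroxide (HP) at 500 μM, and their untreated control, and cultures with MV at 0.5 μM, with Indigo Carmine (IC) at 0.5 μM, and their own untreated control. MV is Methylene Violet in the study's text and Methyl Violet in the labels. All cultures were of the Columbia ecotype and grown in continuous light, at 50 μE per m2 per s by the labels. The treatment lasted 30 min in the light by the study's methods, in what the study calls low to medium light. The labels, by contrast, mention both 30 min of high light and 1 h of darkness and tie neither to an array. RB is a photosensitizer that forms singlet oxygen in the light. The values are log2 signals after robust multi-array averaging (RMA), the authors' normalization between arrays, and a difference of 1 is a 2-fold change. An undifferentiated culture is a model of a chloroplast-containing cell and not of a leaf.

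In the thylakoid membrane, antenna proteins pass light energy to photosystem II and photosystem I, which drive linear electron transport, and the NADH dehydrogenase-like complex and the PGR5/PGRL1 proteins return electrons around photosystem I. Chlorophyll and heme share a tetrapyrrole pathway that starts at glutamyl-tRNA reductase and divides where magnesium or iron enters protoporphyrin IX. Free intermediates of the chlorophyll branch are photosensitizers, and plants control the first step of the pathway tightly. Nuclear photosynthesis genes are also classical readouts of signalling from the plastid to the nucleus.

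The members fell into 6 classes by role. The antenna class was LHCB4.1, LHCB4.2 and LHCB4.3, which encode CP29, a minor antenna protein of photosystem II. The photosystem class was PSBW and PSBY, small subunits of photosystem II, PSB27, its assembly and repair factor, and PSAE-1 and PSAN, subunits of photosystem I. Cyclic electron flow was represented by NdhL, NdhN and NdhS of the NADH dehydrogenase-like complex and by PGRL1B. Tetrapyrrole synthesis held 7 members, HEMA2 and its homologue HEMA3, HEMB1 and hemb2, HEME1, HEME2 and hemf2. The chlorophyll branch held CHLI2, a subunit of magnesium chelatase, CHLM, the methyltransferase after it, and PORB, a light-dependent protochlorophyllide oxidoreductase. CHL, the chloroplastic lipocalin, protects thylakoid lipids from oxidation. Over all 18 arrays 4 members, NdhL, HEMA3, hemb2 and hemf2, had signals of 2.90 to 3.84, with means in the lowest 25% of all probe sets. Whether these 4 stood above background was not tested, and small differences in them cannot be read as absence of a response. The other 19 had signals of 5.01 to 11.40.

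As a check of the labelled material, PSBY had signals of 10.50 to 11.40 and LHCB4.1 of 9.31 to 10.27 on the 18 arrays. FAMA, a guard-cell regulator, lay between 2.92 and 3.59 and EXPA7, a root-hair expansin, between 3.25 and 3.83, which is the low end of the table. Markers of dividing cells, trichomes and seeds had no probe set named here. Array medians were between 4.92 and 5.15. Arrays of RB deviated from their group mean by a root mean square of 0.213 to 0.267 over all probe sets and those of HP by 0.202 to 0.226. Their control deviated more, by 0.302 to 0.358, and the control of MV and IC by 0.192 to 0.238. The 3'-to-5' difference of the GAPDH control probe sets, a sign of RNA integrity, was 2.21 to 2.93 in RB, 2.34 to 2.47 in HP and 2.91 to 3.47 in their control, so that HP did not overlap its control. The same difference of the actin probe sets was 4.99, 5.42 and 5.45 in HP and 5.29, 5.01 and 5.24 in RB, against 4.83, 4.63 and 5.32 in their control. That of the ubiquitin probe sets was 1.57 to 1.83 in HP and 1.68 to 1.91 in RB, against 1.62 to 1.91 in the control, and in both of these the groups overlapped. The part of the GAPDH difference in the results below was not tested.

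The question put to RB and HP was which transcripts respond to singlet oxygen and which to hydrogen peroxide. Of the 23 members, 1 passed in the HP cultures, higher than in the control, and it was HEMA2 (AT1G09940). HEMA2 encodes glutamyl-tRNA reductase, the enzyme of the first committed step of tetrapyrrole synthesis, in a form that is known less for greening than for tissues with little photosynthesis. Its signal was 7.05, 6.96 and 7.10 on the HP arrays, against 5.94, 5.93 and 5.97 on the control arrays. All HP arrays lay about 1 log2 unit above all control arrays and the groups did not overlap, as was so for 6.01% of all probe sets in this direction. The mean was 7.04 ± 0.07 in HP and 5.95 ± 0.02 in the control (SD, n = 3 each), a 2.12-fold difference (log2 1.09, standard error 0.20, 95% interval 0.66 to 1.52, limma, adjusted p = 0.0171). With the replicate number as a block the adjusted p was 0.0036. Among all probe sets, 0.813% were called in HP against control, 0.629% as higher. With the block 2.37% were called. The call was lost without control 1, control 2, HP1 or HP3 (adjusted p 0.0595 to 0.0868), while the log2 fold change stayed between 0.93 and 1.12 under 14 alternatives. As these are bulk cultures, a change in the share of cells and a change of RNA per cell cannot be told apart here or below.

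Under RB the same gene had signals of 7.17, 6.44 and 6.20, against the 5.94, 5.93 and 5.97 of the shared control. All 3 RB arrays lay above the control arrays, but RB1 was above even the HP arrays and RB3 only slightly above the control. Over all probe sets 7.41% had RB arrays that lay wholly above the control arrays. The mean of 6.60 ± 0.50 in RB and 5.95 ± 0.02 in the control gave a log2 fold change of 0.66 (standard error 0.20, limma, adjusted p = 0.106), with an adjusted p of 0.0331 with the replicate block and of 0.0487 without RB3. Without RB1 the log2 fold change was 0.37 (limma, adjusted p = 0.318). HEMA2 was the only member with an unadjusted p under 0.05 in either comparison. Directly, RB minus HP was -0.43 on the log2 scale (limma, adjusted p = 0.378), and without RB1 the difference was -0.71 (adjusted p = 0.0302). In the other set of cultures HEMA2 had signals of 6.30, 5.97 and 6.25 in MV, 6.25, 5.80 and 6.07 in IC, and 6.39, 5.90 and 6.20 in their control. The 3 groups overlapped, and the 95% intervals of the difference from control were -0.42 to 0.44 for MV and -0.56 to 0.30 for IC on the log2 scale. The RB effect minus the MV effect was 0.64 (limma, adjusted p = 0.523) and the RB effect minus the IC effect 0.78 (adjusted p = 0.332), and neither difference passed. Without RB1 they were 0.36 and 0.50.

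**Figure D1:**
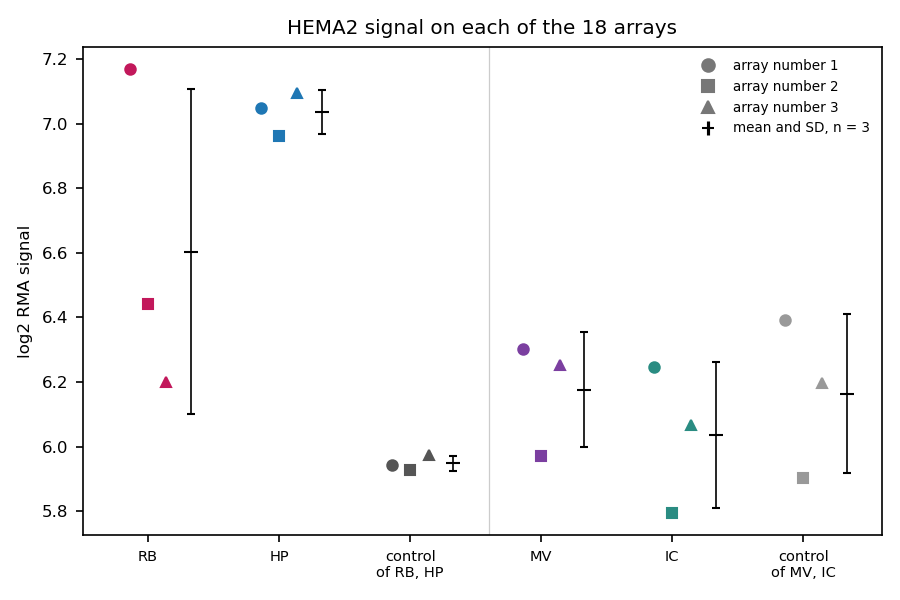
Log2 RMA signal of HEMA2 on each array (vertical axis) in the 6 groups (horizontal axis), with the mean and SD beside each group and the marker shape giving the array number. The 3 HP arrays sit at 6.96 to 7.10, above all control arrays at 5.93 to 5.97, RB is spread between 6.20 and 7.17, and MV, IC and their control overlap.

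None of the other tetrapyrrole genes passed in RB or HP. HEMA3, its homologue, had log2 fold changes of 0.13 in RB and -0.12 in HP against control. HEMB1, a 5-aminolevulinate dehydratase further down the pathway, had signals of 8.55, 8.27 and 8.34 in HP, against 8.43, 8.36 and 8.08 in the control. These overlap, and its 95% intervals were -0.25 to 0.33 in RB and -0.19 to 0.39 in HP. HEME1, a uroporphyrinogen decarboxylase, had signals of 5.69, 5.70 and 5.80 in RB, against 5.64, 5.43 and 5.42 in the control, groups that did not overlap (log2 0.24, limma, adjusted p = 0.470). RB arrays lay wholly above the control arrays in 7.41% of all probe sets, and in HEME1 the lowest RB array was close to control 1. HEME2, the other uroporphyrinogen decarboxylase, had 0.15 in RB and 0.11 in HP. All 7 members of the class had a positive log2 difference in RB (0.04 to 0.66), and 6 of 7 had one in HP (-0.12 to 1.09), of which only that of HEMA2 in HP passed. Of all probe sets, 53.4% had a positive difference in RB and 46.5% in HP. HEMA3, hemb2 and hemf2 had low signals, and their signs carry little weight. In RB the sign turned for HEME2 without RB2 (-0.11) or control 3, for HEMA3 without RB3 and for HEMB1 without control 3 (-0.06), and in HP for hemf2 without HP3 (-0.02) and for HEME2 (-0.05) and HEMB1 without control 3. GSA1, whose enzyme follows glutamyl-tRNA reductase and which is outside the 23, had -0.08 in RB and 0.30 in HP, and neither passed.

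In the chlorophyll branch no member passed in RB or HP. PORB, which reduces protochlorophyllide in the light, had signals of 6.71, 7.34 and 6.94 in RB and 7.03, 7.01 and 6.51 in HP, against 7.14, 7.21 and 6.53 in the control. The 3 groups overlapped, with log2 fold changes of 0.04 in RB (95% interval -0.54 to 0.61) and -0.11 in HP (-0.69 to 0.46). The sign of PORB turned in RB without RB2 (-0.14) or control 3 (-0.18) and in HP without HP3 (0.06) or control 2 (0.02). CHLM and CHLI2 had positive values in RB, 0.25 and 0.37, and negative values in HP, -0.29 and -0.07, of which that of CHLI2 was 0.04 without HP3 and 0.07 without control 1. CHL had a log2 difference of 0.15 in RB and -0.27 in HP. Its signals were 6.17, 6.98 and 6.85 in RB and 6.06, 6.48 and 6.22 in HP, against 6.18, 6.98 and 6.40 in the control. The sign of CHL turned in RB without RB2 or control 1, and in HP it stayed negative when any single array was left out.

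The 8 antenna and photosystem members had lower means in HP than in the control in every case, by log2 values of -0.08 to -0.37, and none passed. All 8 stayed negative without HP1, HP2 or control 3, but 6 did without control 1, 6 without control 2 and 5 without HP3. Within arrays of the same number, 4 of the 8 (PSBW, PSBY, PSB27 and PSAE-1) were lower in HP in all 3 pairs, and none of these passed with the block either (limma, adjusted p 0.245 to 0.581). Among the members of every class, 9 were lower and 3 higher in all 3 pairs. The share of all probe sets that did so was not counted, so the 4 cannot be read as a trait of these genes. PSBY, a small subunit of photosystem II, had signals of 11.02, 11.07 and 10.85 in HP, against 11.36, 11.35 and 11.12 in the control. The HP arrays lay below all control arrays (log2 -0.30, 95% interval -0.61 to 0.02, limma, adjusted p = 0.418), as was the case for 8.9% of all probe sets. PSAE-1, a stromal subunit of photosystem I, had -0.37 and PSBW -0.26. The antenna genes LHCB4.1, LHCB4.2 and LHCB4.3 had -0.15, -0.28 and -0.15. These values rested on single arrays, at -0.47, -0.77 and -0.40 without control 3 and at 0.08, 0.03 and -0.03 without HP3. Under RB these genes were mixed, from -0.27 for PSAE-1 to 0.59 for LHCB4.2. LHCB4.2 had signals of 8.57, 9.14 and 8.40 in RB, against 8.59, 8.62 and 7.14 in the control, and the groups overlapped, with control 3 far below the other control arrays. Without control 3 its difference was 0.10. Among the cyclic electron flow genes, PGRL1B had 0.27 in RB and 0.28 in HP, with 95% intervals of -0.53 to 1.07 and -0.52 to 1.07. Its control arrays were at 7.83, 6.70 and 8.39, and without control 2 it had -0.20 in RB and -0.19 in HP. NdhN had 0.02 and -0.17.

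Over all 23 members, none passed in RB against control, where 2.96% of all probe sets were called (limma), and 1 passed with the replicate block, where 7.25% were called. That 1 was HEMA2. At an unadjusted p under 0.05 the count was 1 in RB, where 14.9% of all probe sets had such a p, and 1 in HP, where 12.7% had. After HEMA2 the smallest p-values in RB were those of hemb2 (log2 0.30, unadjusted p = 0.0632 by limma) and CHLI2 (0.37, unadjusted p = 0.0789). The low signals of hemb2 were 3.29, 3.24 and 3.74 in RB, against 3.11, 3.29 and 2.96 in the control, with RB3 above the other RB arrays. The median log2 fold change was 0.13 in RB and -0.12 in HP, beside 0.02 and -0.02 over all probe sets. It was positive in 18 members in RB, where 53.4% of all probe sets were positive, and in 8 members in HP, where 46.5% were. When 1 array was left out these counts were 12 (without RB2) to 19 in RB and 6 to 12 (without HP3) in HP. For 19 members in RB and 19 in HP the whole 95% interval lay between -1 and 1, as for 82.9% and 85.1% of all probe sets. It lay between -0.5 and 0.5 for 6 members in RB and 7 in HP, as for 36.7% and 36.3% of all probe sets. A 2-fold change thus lay outside the interval of most members, while the intervals of most reached past 0.5 on one side or the other. The 6 in RB include NdhL, HEMA3 and hemf2, and the 7 in HP include NdhL, HEMA3, hemb2 and hemf2. Signals of these members were low, so their intervals cannot be read as absence of a response.

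**Figure D2:**
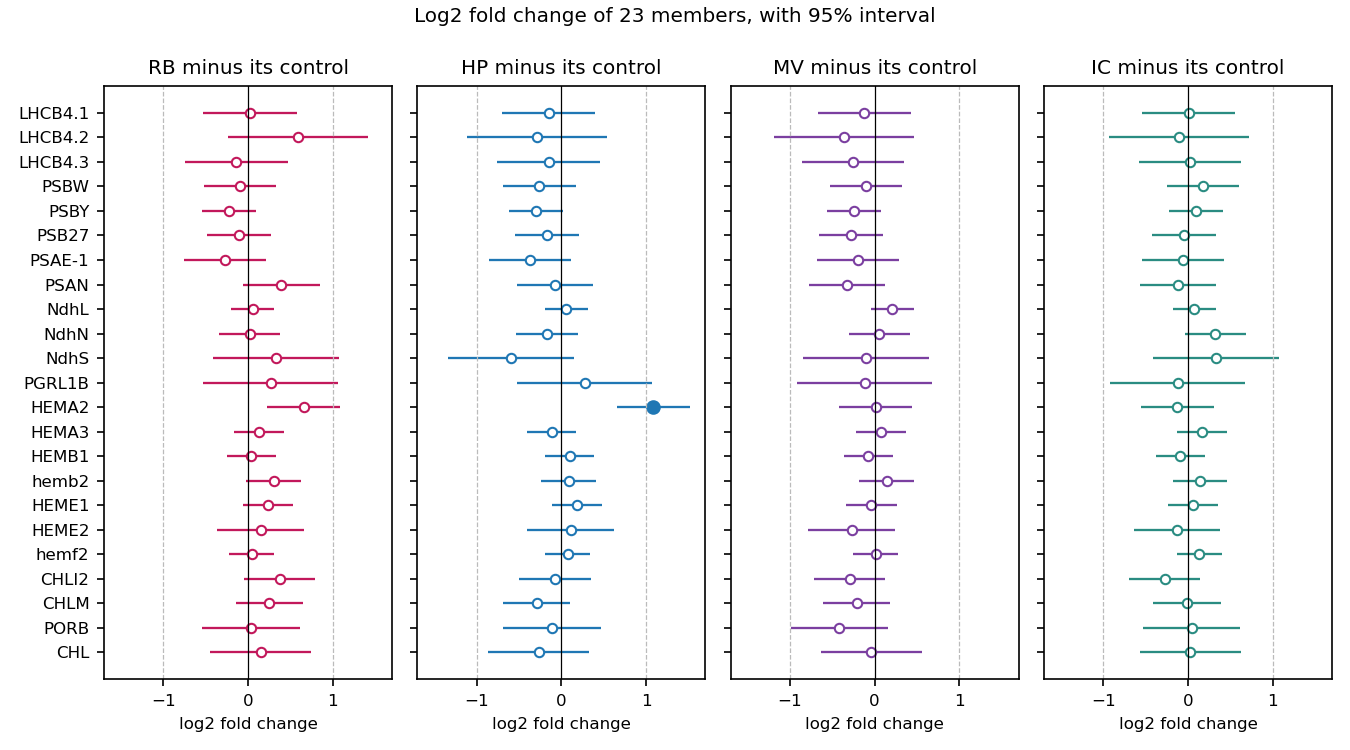
Log2 fold change of each of the 23 members (rows, ordered by class) in RB, HP, MV and IC minus their own control, with the 95% interval from limma as a line and dashed lines at -1 and 1. The 1 filled point, HEMA2 in HP at 1.09, passed an adjusted p of 0.05, and open points did not.

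RB and HP were also compared directly. No member passed (limma, 2.84% of all probe sets called), and 5 had an unadjusted p under 0.05, as did 13.2% of all probe sets. All 5 had a higher mean in RB than in HP. CHLM, which methylates magnesium protoporphyrin IX, had signals of 8.51, 9.03 and 8.73 in RB, against 8.31, 8.39 and 7.94 in HP. The RB arrays lay above all HP arrays, as in 11.7% of all probe sets (log2 0.54, 95% interval 0.15 to 0.94, limma, adjusted p = 0.168). The control arrays of CHLM, at 8.86, 8.52 and 8.13, reached into both groups.

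NdhS, a subunit of the NADH dehydrogenase-like complex that binds ferredoxin, had signals of 8.94, 9.21 and 8.97 in RB, against 8.84, 8.37 and 7.13 in HP. RB was tight and above every HP array, and HP3 was more than 1 log2 unit below the other HP arrays. The log2 difference was 0.93 (standard error 0.35, 95% interval 0.18 to 1.67), with an adjusted p of 0.225 by limma and 0.0398 with the replicate block, where 6.85% of all probe sets were called. Without HP3 it was 0.43 (limma, adjusted p = 0.724). The control of NdhS had 9.12, 8.75 and 8.24, and neither treatment passed against it. LHCB4.2 had signals of 8.57, 9.14 and 8.40 in RB, against 8.12, 8.17 and 7.20 in HP (log2 0.87, limma, adjusted p = 0.340). The RB arrays again lay above all HP arrays, and control 3, at 7.14, was as low as HP3. Without HP3 the difference was 0.55.

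CHLI2 had signals of 5.47, 5.71 and 5.88 in RB, against 5.25, 5.46 and 5.01 in HP, with a gap of 0.0099 between the lowest RB and the highest HP array (log2 0.45, limma, adjusted p = 0.336). PSAN, a lumenal subunit of photosystem I, had 9.29, 9.51 and 9.56 in RB, against 9.07, 9.32 and 8.55 in HP, and these overlapped (log2 0.47, adjusted p = 0.344, and 0.26 without HP3). PORB had a difference of 0.15 between RB and HP (limma, adjusted p = 0.885), and of -0.02 without RB2 or without HP3. In all, 18 of 23 members had a higher mean in RB than in HP, with a median log2 difference of 0.15, and 16 (without HP3) to 20 had when 1 array was left out. Over all probe sets 60.3% were higher in RB and the median was 0.05. The RB arrays lay wholly above the HP arrays in 4 of the 23 members, LHCB4.2, NdhS, CHLI2 and CHLM, beside the 11.7% of all probe sets.

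**Figure D3:**
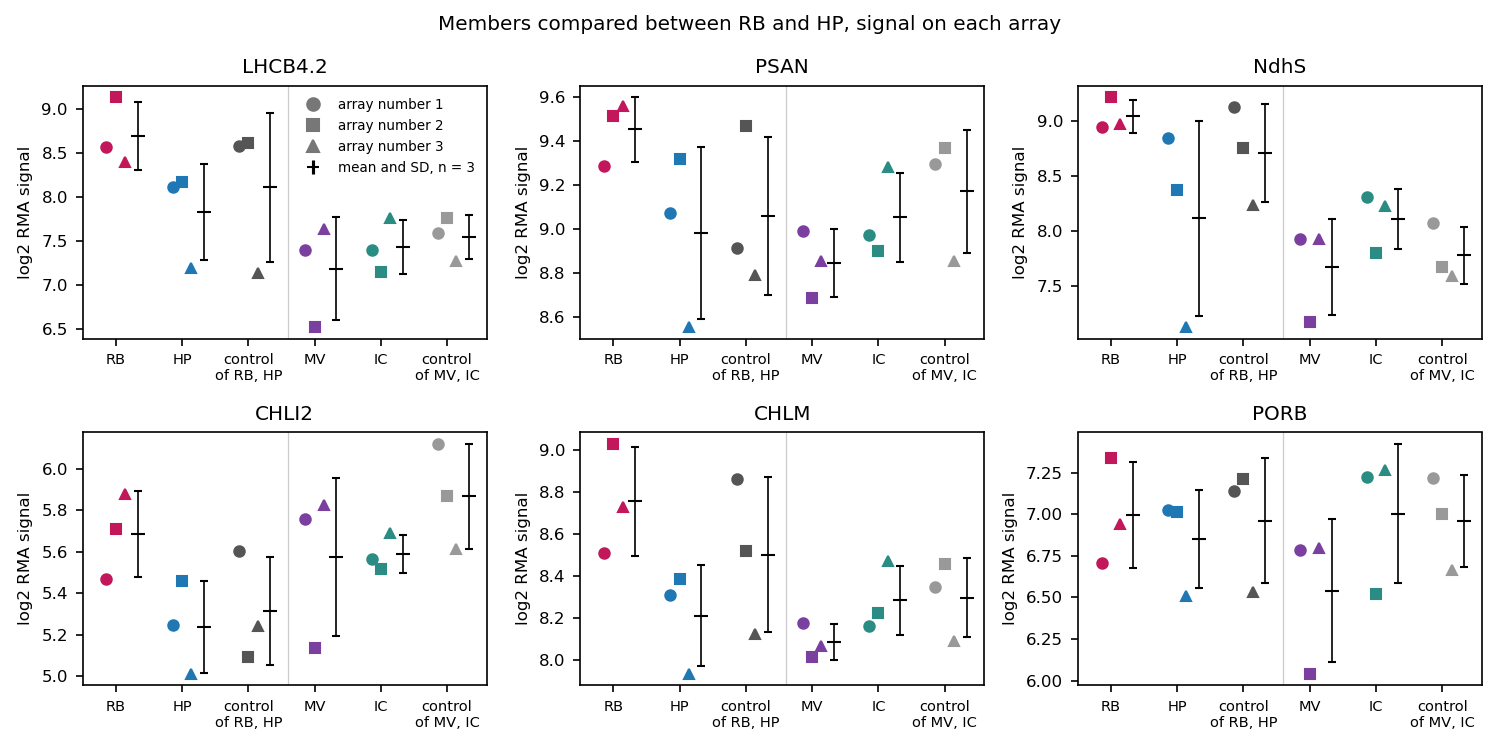
Log2 RMA signal on each array (vertical axes) of the 5 members with an unadjusted p under 0.05 between RB and HP, and of PORB, in the 6 groups, with the mean and SD of 3 arrays beside each group. The HP array numbered 3 is the lowest HP array in all 6 panels, at 7.13 for NdhS and 7.20 for LHCB4.2, and the MV array numbered 2 is the lowest MV array in each.

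MV and IC were the dyes set beside RB at the same dose of 0.5 μM. No member passed in either against control (limma, 0% of all probe sets called in each), with the block or without it, and none had an unadjusted p under 0.05, as 3.33% of all probe sets had in MV and 1.64% in IC. The smallest p-values in MV were those of NdhL, PSBY and PSB27. NdhL had 3.29, 3.25 and 3.15 in MV, against 3.10, 2.90 and 3.08 in the control, signals near the lowest of the array (log2 0.21, unadjusted p = 0.104 by limma). PSBY had 10.90, 10.50 and 10.85 in MV, against 10.95, 10.99 and 11.04 in the control (log2 -0.24, unadjusted p = 0.124). PSB27, which helps to assemble and repair photosystem II, had a log2 difference of -0.28 (unadjusted p = 0.134). NdhL lay wholly above its control and PSBY wholly below, as in 6.33% and 4.56% of all probe sets, while the groups of PSB27 overlapped. Without MV2, PSBY was at -0.12 and PSB27 at -0.13.

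PORB had the lowest log2 fold change of the 23 in MV, with signals of 6.78, 6.04 and 6.80, against 7.21, 7.00 and 6.66 in the control (log2 -0.42, 95% interval -0.99 to 0.16, limma). MV2 was the array far below the others, and without it the log2 fold change was -0.17. In IC, PORB had 7.23, 6.52 and 7.26 (log2 0.04). The smallest p-values in IC were those of NdhN (log2 0.32, unadjusted p = 0.0777 by limma), CHLI2 (-0.28, 0.182) and HEMA3 (0.16, 0.259). The low signals of HEMA3 were 3.84, 3.43 and 3.44 in IC, against 3.28, 3.48 and 3.47 in the control, with only IC1 above all control arrays. NdhN, of the NADH dehydrogenase-like complex, had 5.62, 5.50 and 6.16 in IC, against 5.43, 5.49 and 5.39 in the control, and the IC arrays lay just above the control arrays, as in 5.87% of all probe sets. Without IC3 the difference was 0.12.

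All 3 antenna, all 5 photosystem and all 3 chlorophyll branch members had a negative log2 difference in MV, the same signs as in HP, and none passed. The signs in MV rested partly on MV2. Without it 7 of these 11 were negative, and LHCB4.1, LHCB4.3, PSBW and PSAE-1 had 0.03, 0.05, 0.03 and 0.07, whereas all 11 stayed negative without any other 1 array. Over all 23, 6 members had a positive difference in MV and 13 in IC, where 52.1% and 49.8% of all probe sets had one. When 1 array was left out these counts were 5 to 12 in MV and 7 to 16 in IC. The median was -0.12 in MV and 0.02 in IC, beside 0.01 and -0.00067 over all probe sets. The whole 95% interval lay between -1 and 1 for 22 members in MV and 22 in IC, as for 91.4% and 93.7% of all probe sets. NdhL, HEMA3, hemb2 and hemf2, with their low signals, are among the 22 in each. Between MV and IC no member passed (limma, 0% of all probe sets called). At an unadjusted p under 0.05 there was 1 member, PSBY (log2 -0.34 for MV minus IC, unadjusted p = 0.0377), as against 1.97% of all probe sets. The next smallest p-values were those of PORB (-0.46, 0.106) and NdhN (-0.27, 0.139).

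Whether RB acted on these genes differently from the other dyes was tested as a difference of effects, each against its own control. No member passed for RB minus MV (limma, 0.374% of all probe sets called) or for RB minus IC (0.615%). With the block none passed either, where 1.34% (RB minus MV) and 2.44% (RB minus IC) were called. At an unadjusted p under 0.05 there were 3 members for RB minus MV, PSAN (log2 0.72), CHLI2 (0.67) and HEMA2 (0.64), where 9.14% of all probe sets had such a p. For RB minus IC there were 2, HEMA2 (0.78) and CHLI2 (0.65), where 10.4% had, and PSAN followed (0.51, unadjusted p = 0.107 by limma). In CHLI2 the controls differed more than the treated groups. Its means were 5.69 in RB, 5.57 in MV and 5.59 in IC. They were 5.31 in the control of RB and HP and 5.87 in that of MV and IC. PORB had 0.46 for RB minus MV and -0.01 for RB minus IC. The median over the members was 0.18 for RB minus MV and 0.01 for RB minus IC, and the intervals were wider than those of single effects, with a median of 0.61 to either side.

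The untreated cultures of the sets were compared as well, because they are nominally alike. The RNA integrity differences of the GAPDH and actin probe sets did not overlap between these controls and went in opposite directions. GAPDH had 3.47, 2.91 and 3.34 beside RB and HP, against 2.27, 2.39 and 2.05 beside MV and IC. Actin had 4.83, 4.63 and 5.32, against 5.57, 5.50 and 5.75 in the same order. The ubiquitin differences overlapped. The part of RNA integrity in results between the controls, here and below, was not tested. No member passed (limma, 7.47% of all probe sets called), and 2 had an unadjusted p under 0.05, as 25.4% of all probe sets had. NdhS had 9.12, 8.75 and 8.24 in the control of RB and HP, against 8.07, 7.67 and 7.59 in the control of MV and IC. These groups did not overlap, as in 13.3% of all probe sets in this direction (log2 0.93, limma, adjusted p = 0.112), and the difference was as large as that between RB and HP. CHLI2 had 5.60, 5.09 and 5.25 in the control of RB and HP, against 6.12, 5.87 and 5.61 in the control of MV and IC (log2 -0.55, limma, adjusted p = 0.0951), and these lay wholly apart in CHLI2 as in 12.7% of all probe sets. PSBY followed (0.29, adjusted p = 0.241), and PORB had 0.00045. Without control 3 of RB and HP, NdhS (1.16, adjusted p = 0.0497) and LHCB4.2 (1.05, adjusted p = 0.0491) passed. Signals of MV and IC were therefore set only against their own control.

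Many members were low on the same arrays. Control 3 of RB and HP was the lowest array of its group in 15 of 23 members, as in 38.7% of all probe sets, and HP3 in 13, as in 31.5%. Control 3 of MV and IC was lowest in 14 (33.7%), MV2 in 16 (30.8%) and IC2 in 17 (31.5%). RB1 was lowest in 13 (44%). The antenna genes had the lowest class median on 4 of these 6 arrays. Their median deviation from the group mean was -0.46 in HP3, -0.62 in MV2, -0.29 in IC2 and -0.64 in control 3 of RB and HP, where the median of all probe sets deviated by 0.01, 0.01, -0.00015 and -0.02. The tetrapyrrole genes deviated by medians of -0.02, -0.02, -0.17 and -0.07 on the same arrays. These medians include HEMA3, hemb2 and hemf2, whose signals were low, and do not show that the class was spared. On MV2, HEME2 had 5.94, against 6.66 and 6.84 on MV1 and MV3. HEMB1 had 8.08 there, against 8.45 and 8.55, and HEMA2 had 5.97, against 6.30 and 6.25. HEME1, at 5.46 on MV2, was not at its lowest there. HEMA2 in HP was not part of this pattern, with a range of 0.13 over its HP arrays.

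**Figure D4:**
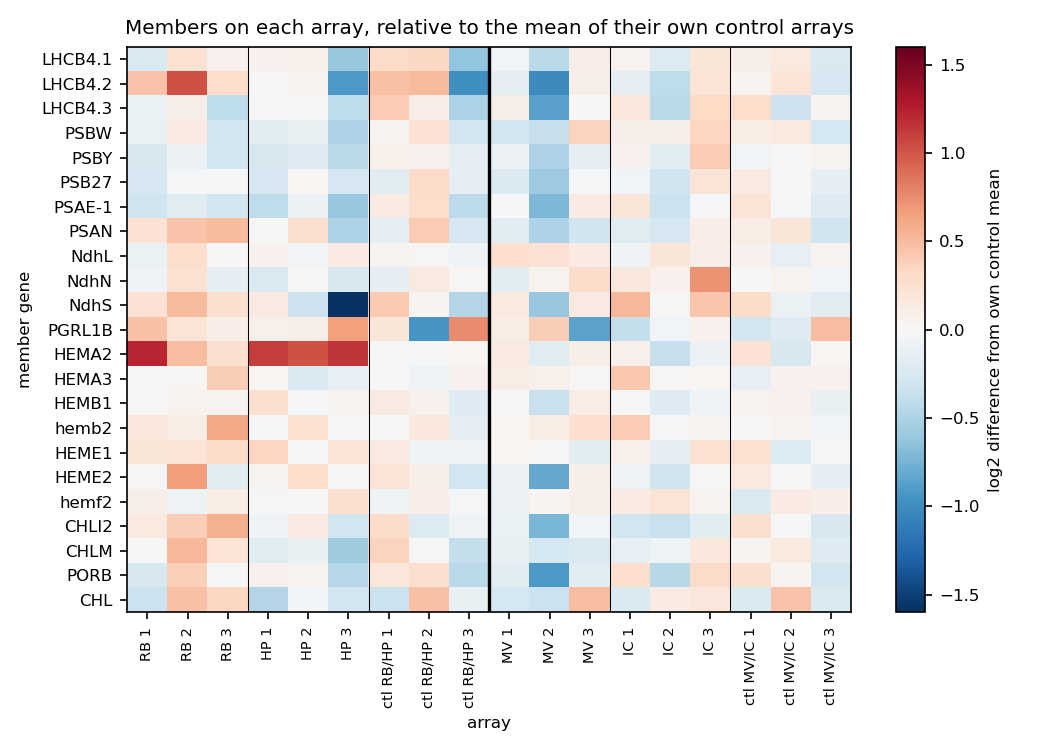
Log2 signal of each member (rows) on each of the 18 arrays (columns) minus the mean of the 3 control arrays of its own set, in colour from -1.6 (blue) to 1.6 (red). HEMA2 is red on all 3 HP arrays and on RB1, and the antenna, photosystem and chlorophyll branch rows are mostly blue on HP3, on control 3 of RB and HP and on MV2.

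Other nuclear plastid genes were chosen by locus, with earlier results of these data known, or by words in the annotation. Of these, 32 had a probe set, and none passed in RB, HP, MV or IC against control or between RB and HP. They include RCA, PRK and SBPASE of the Calvin cycle, with log2 fold changes of 0.01, 0.02 and 0.17 in RB and 0.25, 0.03 and 0.26 in HP. LIL3-1, a light-harvesting-like protein, had 0.22 in RB and 0.17 in HP, and EX1, the EXECUTER1 protein known from singlet oxygen signalling, had -0.05 and 0.18. The plastid ascorbate peroxidases TAPX and SAPX had 0.03 and 0.06 in RB and -0.08 and 0.35 in HP. With the replicate block AT4G01150 was lower in HP than in the control (log2 -0.50, limma, adjusted p = 0.0391 and 0.121 without the block), where 2.37% of all probe sets were called. Between RB and HP with the block, AT1G52220 was higher (0.55, adjusted p = 0.0462) and MDH, a malate dehydrogenase, lower (-0.54, adjusted p = 0.0376) in RB, where 6.85% were called. Between the control of RB and HP and the control of MV and IC, 4 of these 32 genes passed, where 7.47% of all probe sets did, ATPC2 (log2 -0.62) and MDH (-0.66) lower and AT4G01150 (0.58) and CRR28 (0.58) higher in the control of RB and HP (limma, adjusted p 0.0195 to 0.0497). CRR28 had low signals, 3.93, 3.98 and 3.41 in the control of RB and HP, against 3.12, 3.10 and 3.38. Whether it stood above background was not tested.

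Of 69 plastid-encoded genes with a probe set, 7 passed as lower in HP than in the control, where 0.813% of all probe sets were called, and 63 had a negative log2 difference, with a median of -0.74, beside the -0.12 of the 23 nuclear genes. In RB none of the 69 passed and their median was -0.17, and 20 of them were higher in the control of RB and HP than in that of MV and IC, beside 7.47% of all probe sets called. With the replicate block 13 were lower in HP than in the control (2.37% of all probe sets called), 2 were lower in RB than in the control (7.25%) and 2 were higher in RB than in HP (6.85%). Nuclear and plastid-encoded genes were not tested against each other.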

How the data were processed

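Total RNA from 18 cultures was hybridized to Affymetrix ATH1 arrays. The authors made the values by RMA in the R package affy, which corrects background, equalizes the distributions of the arrays and sums up each probe set (versions not given in the sources used here). The deposited values are log2 signals of 22810 probe sets. Whether all arrays were normalized in 1 run is not stated. No reading depth applies, and the number of arrays limits the precision.

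The 64 control probe sets were left out. All arrays were fitted as 6 groups with limma 3.58.1 in R 4.3.3 (lmFit, contrasts.fit, eBayes), with residual and prior degrees of freedom of 12 and 3.37. The p-values were adjusted by Benjamini and Hochberg over 22746 probe sets, with a threshold of 0.05. The fit was tested on simulated data. Python 3.11.15 with matplotlib 3.10.9 made the figures. The study names 3 biological replicates per group. Alternatives were a replicate block, only the arrays compared, other scalings, a filter on dim probe sets, another variance prior, control probe sets kept and leaving out each array.

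The pairing comes from the labels, in which a control array names the treated arrays of its own number. Deviations from the group means of same-numbered arrays correlated across probe sets at 0.483 to 0.636 between HP and control, 0.000948 to 0.449 between RB and control, 0.231 to 0.516 between RB and HP, -0.333 to 0.634 between MV and control, 0.216 to 0.543 between IC and control and 0.158 to 0.584 between MV and IC. The fit with the number as a block has 8 residual degrees of freedom.

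The annotation of the platform lists 14016 probe sets, 13513 with 1 symbol and 503 with several, and the other 8794 are unnamed here. The members and gene lists were chosen with earlier results of these data known, and the further plastid genes by words in the annotation. Called members are named, or the 3 smallest p-values where none was called, and PORB in each comparison. Promoter sequences and coordinates were not used here.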

Additional observations from a re-analysis of the deposited data

How the results depend on the processing

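Of 143 recomputed counts of members called, 132 did not move. This says little, because every main count other than that of HP against control was 0. In MV, in IC and between MV and IC no probe set at all was called. The call of HEMA2 in HP was kept under 9 of 14 alternatives. With the replicate block, 1 member passed in RB against control (HEMA2) and 1 between RB and HP (NdhS), and the block changed no other call among the members. No paired analysis was possible for the comparison of the control groups, because the number pairs arrays only within a set. Leaving out 1 array in turn gave counts of 0 to 1 in RB against control (1 without RB3), 0 to 1 in HP against control (0 without control 1, control 2, HP1 or HP3), 0 to 1 between RB and HP (1 without RB1, HEMA2 lower in RB) and 0 to 2 between the control groups (2 without control 3 of RB and HP). Without every array numbered 3 in the RB and HP set, an alternative chosen after seeing the data, the counts were 0 in HP against control, where HEMA2 had an adjusted p of 0.0688 by limma, and 2 between the control groups. These settings leave fewer arrays in the fit, and the cause was not tested further. Another quantile normalization, subtraction of array medians, the filter on dim probe sets, the other prior, the control probe sets kept, only the arrays compared, and members with upper-case symbols only changed no count. The median over the members stayed positive in RB (0.03 to 0.18) and between RB and HP (0.06 to 0.23) under all alternatives. It turned in sign under 1 of 15 in HP (-0.23 to 0.01), 1 of 14 in MV (-0.24 to 0.03), 4 of 14 in IC (-0.09 to 0.08) and 3 of 21 for RB minus IC (-0.13 to 0.16). HEMA2 kept its direction in HP, RB and RB against HP under the 14 alternatives of each, with adjusted p-values of 0.0036 to 0.0868, 0.0331 to 0.446 and 0.0302 to 0.945 by limma. NdhS between RB and HP had adjusted p-values of 0.0398 to 0.788 by limma. Between the control groups, ATPC2 and MDH kept their calls under 5 of 13 alternatives each, AT4G01150 under 8 of 13 and CRR28 under 4 of 12. With 3 arrays per group the 95% interval of a member reached 0.25 to 0.83 to either side on the log2 scale (median 0.43). Changes larger than that could still miss the adjusted threshold, as HEMA2 did in RB at 0.66 (limma, adjusted p = 0.106). The differences of the other single members without 1 array, and within arrays of the same number, were also chosen after seeing the data and carry no test of their own.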
